A study of Homo sapiens with 16 samples.

Results

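PFKFB1, PFKFB2, PFKFB3, PFKFB4, PDK1, PDK2, PDK3, PDK4, PDP1 and PDP2 are the 10 genes described here, taken by name from the 43388 genes with a listed expression value. They are the 4 bifunctional enzymes that set the amount of fructose 2,6-bisphosphate, the 4 kinases that switch off pyruvate dehydrogenase, and the 2 catalytic phosphatases that switch it back on. The cells were cardiomyocytes differentiated from WTC11, an established human induced pluripotent stem cell line, by timed activation and then inhibition of Wnt signalling, with cardiac progenitors frozen and thawed during the differentiation. Bulk RNA was sequenced from 16 libraries in 4 groups of 4. Day16_RPMI was the starting point at Day 16 in standard RPMI/B27. From Day 16 to Day 30 the cells stayed in standard RPMI/B27, moved to RPMI_glcM/B27, which is the same medium with its glucose set to 5 mM, or moved to HPLM/B27, a medium modelled on human plasma that also holds 5 mM glucose together with lactate, pyruvate and many other plasma metabolites. Standard RPMI has the highest glucose of the 3 media. The comparison of RPMI_glcM/B27 with RPMI/B27 therefore asks about glucose alone, and that of HPLM/B27 with RPMI_glcM/B27 about the rest of the plasma-like composition. The libraries of a group came from wells of a single differentiation of a single line, so p-values measure only the spread between wells.

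Fructose 2,6-bisphosphate is the strongest allosteric activator of phosphofructokinase, the committed step of glycolysis. Each PFKFB protein carries a kinase that makes it and a phosphatase that breaks it down. PFKFB1 is the liver and skeletal muscle isoform, PFKFB2 the heart isoform, whose kinase activity rises when insulin or adrenergic signalling phosphorylates it, PFKFB3 the widely expressed inducible isoform with kinase activity far above its phosphatase activity, and PFKFB4 an isoform first described in testis and induced by hypoxia. Pyruvate dehydrogenase links glycolysis to the tricarboxylic acid cycle. Phosphorylation of its E1 alpha subunit by a PDK stops the complex and dephosphorylation by a PDP restarts it. PDK1 is a well-known target of hypoxia-inducible factor 1, PDK4 rises in heart and muscle during fasting through PPAR and FOXO factors, and PDP1 is the calcium-stimulated phosphatase of muscle.

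PFKFB3, PFKFB4, PDK1 and PDK3 were the 4 genes of the set that fell between Day 16 and Day 30 in RPMI/B27. A promoter window of each is therefore shown, since PDK1 and PFKFB4 are commonly discussed as hypoxia targets. For PDK1 and PFKFB3 it is the window that held a match. RefSeq windows on GRCh38.p14 running from 250 bases before to 50 bases after an annotated start were matched for 8 of the 10 genes, all but PFKFB2 and PDP1, giving 13 windows. Each was searched on both strands for ACGTG, the core of the hypoxia response element, for the E-box CACGTG, for the FOXO motif GTAAACA and for the estrogen-related receptor half-site AAGGTCA. An E-box CACGTG holds ACGTG on each of its strands, so each E-box match is also a pair of ACGTG matches. Capitals mark matches.

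PDK1, window at chr2:172555840-172556139, plus strand: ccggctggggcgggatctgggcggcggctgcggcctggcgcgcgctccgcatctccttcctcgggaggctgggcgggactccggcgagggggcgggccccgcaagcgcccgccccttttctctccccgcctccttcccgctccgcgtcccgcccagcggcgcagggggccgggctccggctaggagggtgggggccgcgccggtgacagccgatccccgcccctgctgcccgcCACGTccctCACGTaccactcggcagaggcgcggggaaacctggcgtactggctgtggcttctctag

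PFKFB3, window at chr10:6202682-6202981, plus strand: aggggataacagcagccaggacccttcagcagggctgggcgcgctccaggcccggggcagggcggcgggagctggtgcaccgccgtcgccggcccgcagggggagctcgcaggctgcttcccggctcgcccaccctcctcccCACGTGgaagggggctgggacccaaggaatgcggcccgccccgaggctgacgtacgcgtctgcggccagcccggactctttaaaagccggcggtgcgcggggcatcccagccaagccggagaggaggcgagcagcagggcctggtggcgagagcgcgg

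PDK3, window at chrX:24465036-24465335, plus strand: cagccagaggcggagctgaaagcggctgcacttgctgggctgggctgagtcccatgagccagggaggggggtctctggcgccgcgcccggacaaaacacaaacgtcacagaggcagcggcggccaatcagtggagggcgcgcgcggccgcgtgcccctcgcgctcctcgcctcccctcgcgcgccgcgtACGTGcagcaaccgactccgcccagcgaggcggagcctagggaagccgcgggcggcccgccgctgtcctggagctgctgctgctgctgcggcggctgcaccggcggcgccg

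PFKFB4, window at chr3:48556754-48557053, minus strand: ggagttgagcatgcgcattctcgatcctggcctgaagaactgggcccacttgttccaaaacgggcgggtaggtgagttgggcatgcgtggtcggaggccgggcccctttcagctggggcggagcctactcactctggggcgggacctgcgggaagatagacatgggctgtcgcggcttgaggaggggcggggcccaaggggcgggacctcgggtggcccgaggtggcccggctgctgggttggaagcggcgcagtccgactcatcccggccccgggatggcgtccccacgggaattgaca

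The PDK1 window shown held ACGTG matches beginning 17 and 8 bases before its annotated start. That start lies inside the gene, whose RefSeq span begins at chr2:172555373. In the PFKFB3 window shown a CACGTG lay 108 bases before its annotated start, which is also inside the gene, whose span begins at chr10:6144921. In the PDK3 window a single ACGTG lay 61 bases before the start. PDK1 and PFKFB3 each had another window, at chr2:172555123-172555422 and chr10:6144671-6144970, at the start of the gene's span. These held no match to any of the 4 motifs. The PFKFB4 window held no match to any of the 4 motifs. Over all 13 windows, ACGTG was present in 5, from PDK1, PDK2, PDK3, PDP2 and PFKFB3, and CACGTG in 3, from PDK2, PDP2 and PFKFB3. GTAAACA and AAGGTCA were in 0 of the 13. Among all 35116 RefSeq windows of this length, 21.4% held ACGTG, 7.26% CACGTG, 3.42% GTAAACA and 3.92% AAGGTCA. A match is a run of letters and is no measurement of binding.

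Expression was deposited as TPM (transcripts of a gene as a share of all transcripts, scaled for gene length and to the same total in each library). Levels of different genes can be set side by side only roughly, since the gene lengths and strand setting used are not given. PFKFB2, PFKFB4, PDK1 and PDK2 also share exonic bases with other genes. Whole reads could be recovered from the TPM values and came to between 7744768 and 16183655 per library. The mitochondrial ribosomal RNA RNR2 took 41.0% to 48.3% of all TPM and the small nuclear RNA RN7SK 8.76% to 13.8%. Another mitochondrial ribosomal RNA, RNR1, was uneven, reaching 14387 TPM in Day 30 RPMI/B27 replicate 3 and 29276 TPM in replicate 4. Since TPM has the same total in each library, a larger share of such RNAs leaves less for the other genes. Values are therefore also given as rescaled TPM, divided by the library's median-of-ratios factor over genes above 0 in all libraries. Those factors ran from 0.718 in Day 30 RPMI/B27 replicate 4 and 0.783 in its replicate 3 to 1.31. The share of TPM outside mitochondrial and ribosomal RNA genes and RN7SK was 0.339 and 0.389 in these libraries. HPLM/B27 replicate 1 had a share of 0.394 with a factor of 0.887, and RPMI/B27 replicate 1 a share of 0.454 with 1.15. The cause of the differing factors was not tested. The summed TPM of 9 cardiomyocyte markers, none at 0, was 12911 to 14024 at Day 16, 12097 to 16316 in RPMI/B27, 13666 to 15164 in RPMI_glcM/B27 and 12770 to 14968 in HPLM/B27. Summed fibroblast markers (8 genes) ran, in the same order of groups, 241 to 437, 151 to 300.1, 118 to 164 and 123 to 187 TPM. Smooth muscle markers (5 genes, MYH11 at 0 in all libraries) summed to between 206 and 903 TPM over all libraries, and endothelial markers (6 genes) to 42.9 to 55.3 TPM at Day 16 and 13.8 to 31.7 TPM over the Day 30 libraries. Proliferation markers (4 genes) summed to 227 to 305 TPM at Day 16 and to 64.7 to 177 TPM over the Day 30 libraries. Hepatic endoderm markers (7 genes) summed to 414 to 729 TPM at Day 16, 313 to 552 in RPMI/B27, 90.3 to 205 in RPMI_glcM/B27 and 66.0 to 202 in HPLM/B27. The endothelial and proliferation sums were thus lower in every Day 30 library than in every Day 16 library. In each group 5 of the 6 endothelial markers averaged under 1 TPM, and only KDR passed the minimum of the test. The endothelial sum is therefore largely a measure of KDR. The hepatic sum was lower in every low-glucose library than in every RPMI/B27 library at Day 30, and the fibroblast sum had a median of 241 TPM in RPMI/B27 against 144 in RPMI_glcM/B27 and 147 in HPLM/B27. Their part in the results that follow was not tested, and in bulk RNA fewer cells of a type and less RNA per cell cannot be told apart.

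Over all 16 libraries, PDK1 had by far the highest TPM of the 10 genes, with a mean of 118 TPM. PFKFB3 (24.9 TPM), PDK2 (22.0 TPM) and PDK3 (21.1 TPM) formed a second tier, followed by PDP1 (8.93 TPM), PFKFB2 (6.19 TPM), PFKFB4 (4.84 TPM) and PDP2 (4.13 TPM). PDK4 (0.858 TPM) and PFKFB1 (0.518 TPM) were close to the detection limit. The other 8 genes passed the minimum mean of 1 TPM and entered the test, which was limma on log2(TPM + 1) over all 4 groups with Benjamini-Hochberg adjustment over 16122 genes. A pseudocount of 1 understates the change of low genes.

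**Figure D1:**
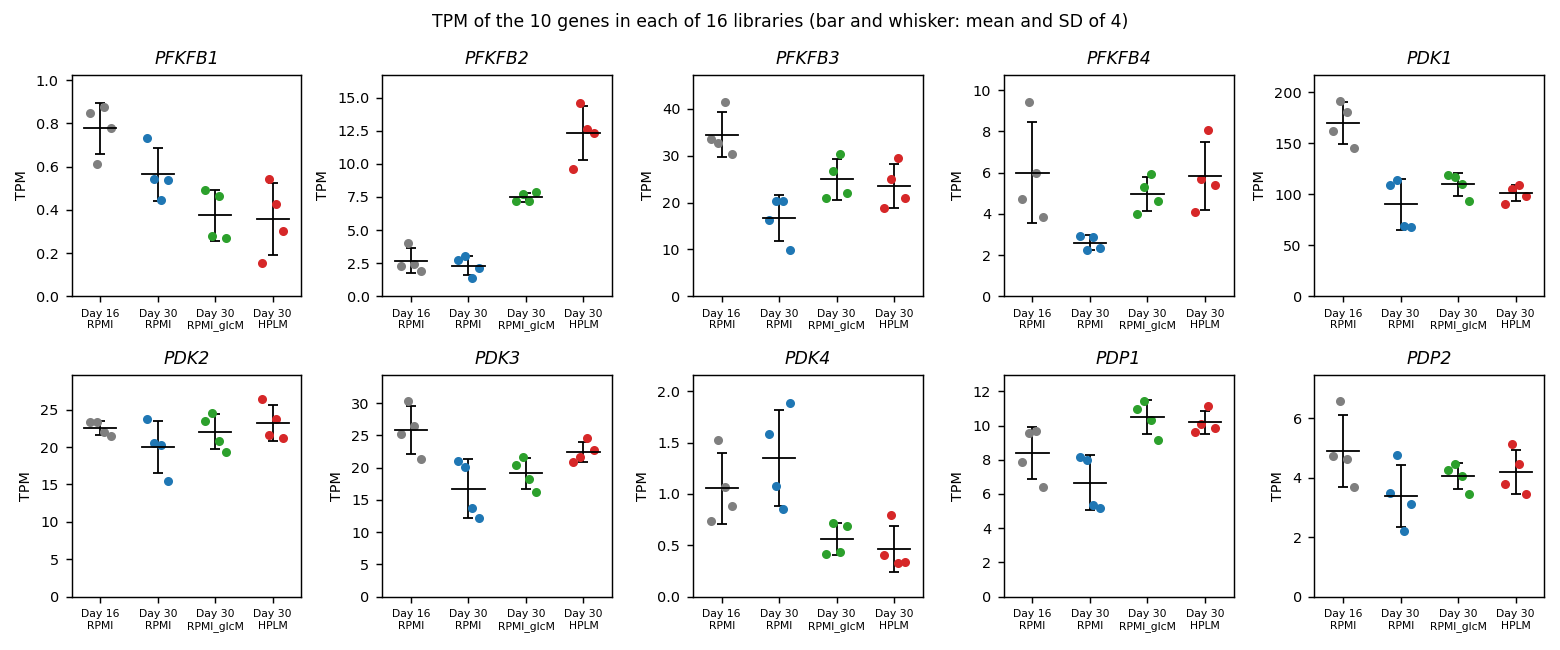
TPM of each of the 10 genes (a panel each, linear axis from 0) in the 4 groups, with 1 point per library and the mean and SD of the 4 as bar and whisker. PFKFB2 separates the 3 Day 30 media with no overlap of libraries between HPLM/B27 (9.64 to 14.6 TPM), RPMI_glcM/B27 (7.18 to 7.85 TPM) and RPMI/B27 (1.37 to 3.02 TPM), whereas the PDK2 libraries of all 4 groups lie between 15.4 and 26.4 TPM.

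PFKFB2, the heart isoform, was the gene of the set that depended most on the medium. It stood at 2.27, 4.03, 2.47 and 1.92 TPM in the Day 16 libraries and at 2.75, 3.02, 1.37 and 2.11 TPM at Day 30 in RPMI/B27. In RPMI_glcM/B27 it measured 7.21, 7.70, 7.18 and 7.85 TPM, and in HPLM/B27 9.64, 14.6, 12.7 and 12.4 TPM. Every library in low-glucose RPMI lay above every library in standard RPMI, and every HPLM/B27 library lay above every RPMI_glcM/B27 library, on the TPM and on the rescaled TPM scale. The Day 16 and Day 30 RPMI/B27 libraries overlapped. Group means were 2.67 ± 0.936, 2.31 ± 0.734, 7.48 ± 0.342 and 12.3 ± 2.03 TPM (SD, n = 4), so that the mean in HPLM/B27 was 5.32 times and in RPMI_glcM/B27 3.24 times that in RPMI/B27.

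On the log2(TPM + 1) scale PFKFB2 was higher in HPLM/B27 than in RPMI/B27 by 2.02 (SE 0.19, adjusted p = 2.56e-05) and higher in RPMI_glcM/B27 than in RPMI/B27 by 1.39 (SE 0.19, adjusted p = 0.00121). Against Day 16 it was higher by 1.88 in HPLM/B27 (adjusted p = 7.01e-06) and by 1.24 in RPMI_glcM/B27 (adjusted p = 0.00027), while in RPMI/B27 the difference was -0.15 (adjusted p = 0.596). HPLM/B27 exceeded RPMI_glcM/B27 by 0.64 (SE 0.19), which did not pass the test on TPM (adjusted p = 0.351). After rescaling the same difference was 0.71 (SE 0.14) and passed (adjusted p = 0.0184), and in the count-based limma-voom fit it was 0.78 (adjusted p = 0.00193). PFKFB2 shares 315 exonic bases with YOD1 on the opposite strand, and how reads were counted by strand is not given in the sources used here, so reads in that stretch cannot be assigned to either gene. YOD1 itself had a mean of 13.6 ± 1.63 TPM at Day 16, and at Day 30 of 11.0 ± 3.34 in RPMI/B27, 11.9 ± 1.22 in RPMI_glcM/B27 and 11.3 ± 1.67 TPM in HPLM/B27 (SD, n = 4), without the PFKFB2 pattern.

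PFKFB3, the inducible isoform, fell from Day 16 to Day 30 in RPMI/B27. It was at 33.5, 32.6, 41.4 and 30.4 TPM at Day 16 and at 16.3, 20.3, 20.2 and 9.82 TPM at Day 30 in RPMI/B27. The Day 30 libraries in RPMI_glcM/B27 had 20.9, 26.8, 30.3 and 21.9 TPM and those in HPLM/B27 18.9, 25.0, 29.6 and 20.9 TPM. All 12 Day 30 libraries lay below all 4 Day 16 libraries in TPM, but after rescaling each Day 30 group overlapped with Day 16. In RPMI/B27 the change from Day 16 was -1.05 (SE 0.20, adjusted p = 0.00274), and after rescaling -0.72 (SE 0.18, adjusted p = 0.013). The changes in RPMI_glcM/B27 (-0.45, adjusted p = 0.127) and HPLM/B27 (-0.54, adjusted p = 0.0612) did not pass, although both passed without RPMI/B27 replicate 4 (adjusted p = 0.0419 and 0.0163), a library outside those comparisons but inside the shared fit, and the latter passed without HPLM/B27 replicate 3 (adjusted p = 0.0459). After rescaling they were -0.20 (adjusted p = 0.462) and -0.21 (adjusted p = 0.44). Between the Day 30 media PFKFB3 did not pass in any comparison on either scale, with differences of 0.51 (SE 0.20) for HPLM/B27 and 0.59 (SE 0.20) for RPMI_glcM/B27 against RPMI/B27, and of -0.09 (SE 0.20) between the 2 low-glucose media. Over 12 settings of the processing, each low-glucose medium passed against RPMI/B27 in 2. The lowest limma adjusted p was 0.0368 for HPLM/B27, which passed in limma-voom, and 0.0274 for RPMI_glcM/B27.

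PFKFB4 was lowest in RPMI/B27 at Day 30. Its libraries had 4.73, 9.42, 5.97 and 3.85 TPM at Day 16 and 2.92, 2.22, 2.89 and 2.35 TPM in RPMI/B27 at Day 30. They had 4.01, 5.31, 5.91 and 4.64 TPM in RPMI_glcM/B27 and 4.11, 5.69, 8.06 and 5.41 TPM in HPLM/B27. Every low-glucose library lay above every RPMI/B27 library on both scales, and the Day 16 libraries spanned the low-glucose range. PFKFB4 fell from Day 16 in RPMI/B27 by 0.90 on the log2 scale (SE 0.22, adjusted p = 0.00973), and by 0.92 without the 2 RNR1-rich RPMI/B27 libraries, which no longer passed (adjusted p = 0.0520). It was higher in HPLM/B27 than in RPMI/B27 by 0.90 (SE 0.22, adjusted p = 0.0384). The latter call was lost in 10 of 16 fits that each left out a library, with adjusted p over all 16 from 0.0137 to 0.146 and differences from 0.75 to 1.03. The 10 were Day 16 replicates 1 and 3, RPMI/B27 replicates 2, 3 and 4, RPMI_glcM/B27 replicates 2 and 4 and HPLM/B27 replicates 2, 3 and 4. In RPMI_glcM/B27 the difference from RPMI/B27 was 0.73 (SE 0.22, adjusted p = 0.1), and 0.67 (adjusted p = 0.0475) after rescaling. Against Day 16 the low-glucose media gave -0.01 in HPLM/B27 (adjusted p = 0.987) and -0.18 in RPMI_glcM/B27 (adjusted p = 0.601), signs that turn to 0.28 and 0.05 with rescaling. PFKFB4 shares 298 exonic bases with UCN2 on the same strand, but UCN2 never exceeded 0.837 TPM.

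PFKFB1, the liver and skeletal muscle isoform, had 3 to 14 reads per library and never exceeded 0.875 TPM. Its means were 0.777 ± 0.118 at Day 16, 0.565 ± 0.122 in RPMI/B27, 0.375 ± 0.118 in RPMI_glcM/B27 and 0.356 ± 0.167 TPM in HPLM/B27 (SD, n = 4). It fell below the filter and had no test in the main fit. With all 31047 genes above 0 in the fit on TPM, it was lower than at Day 16 in RPMI_glcM/B27 (-0.37, adjusted p = 0.0367) and in HPLM/B27 (-0.40, adjusted p = 0.025). In rescaled TPM both groups overlapped with Day 16. The ranges were 0.467 to 0.743 at Day 16, 0.271 to 0.474 in RPMI_glcM/B27 and 0.174 to 0.541 in HPLM/B27. The hepatic endoderm sum fell in the same groups, from 414 to 729 TPM at Day 16 to 66.0 to 205 TPM in the low-glucose media, and its part in the PFKFB1 level was not tested.

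The make-up of the PFKFB family therefore differed between groups while PFKFB3 stayed its main member. PFKFB2 made up 6.05% ± 1.75 of summed PFKFB TPM at Day 16, 10.9% ± 3.76 in RPMI/B27, 20.1% ± 2.88 in RPMI_glcM/B27 and 29.5% ± 3.21 for HPLM/B27 (SD, n = 4). The lowest HPLM/B27 library, at 25.0%, was above the highest RPMI_glcM/B27 library, at 22.6%, which in turn had its lowest library, at 16.4%, above the highest RPMI/B27 library, at 14.3%. PFKFB3 made up 78.7% ± 5.91, 74.3% ± 6.59, 65.8% ± 2.66 and 56.0% ± 2.27 in the same order. PFKFB4 kept 12.2% to 13.7% on average. Summed PFKFB expression was 43.9 ± 6.05 TPM at Day 16, 22.1 ± 5.06 in RPMI/B27, 37.8 ± 5.10 in RPMI_glcM/B27 and 42.1 ± 7.86 for HPLM/B27. Shares and sums are descriptions. Shares do not depend on library scaling, but their level depends on the gene lengths used for TPM.

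**Figure D2:**
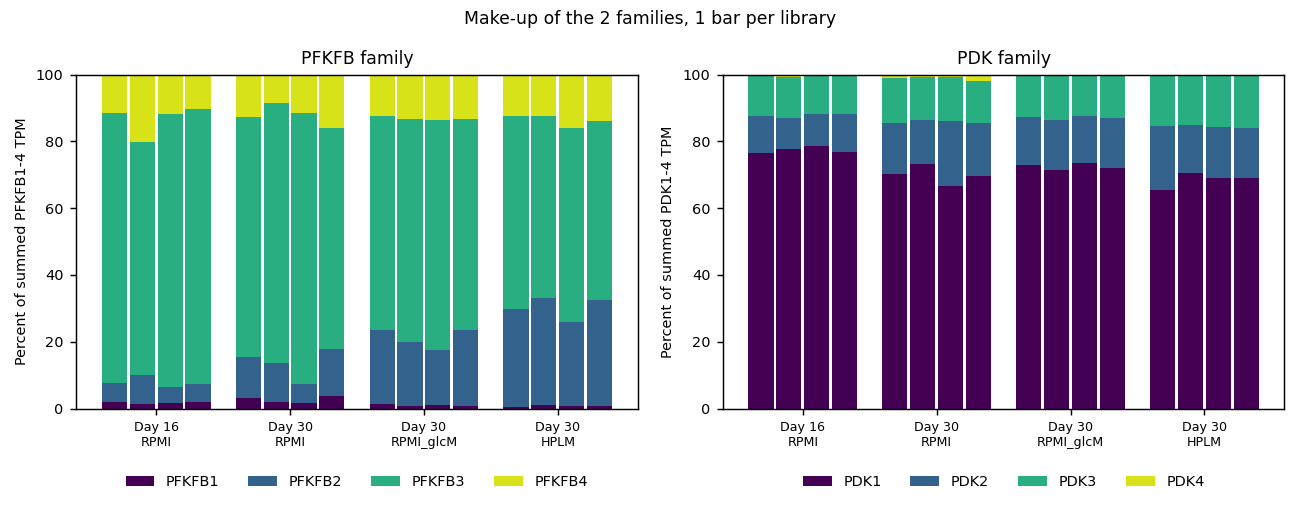
Share of each isoform in the summed TPM of the PFKFB family (left) and the PDK family (right), in percent from 0 to 100, with 1 stacked bar per library, by group. The PFKFB2 band averages 6.05% at Day 16 and 29.5% in HPLM/B27, while the group means of PDK1 keep to 68.6% to 77.4% of PDK expression.

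PDK1, the hypoxia-responsive kinase, was the main PDK in every library and fell with time. Its Day 16 libraries had 162, 191, 181 and 145 TPM, and those at Day 30 in RPMI/B27 109.6, 114, 69.2 and 67.6 TPM. In RPMI_glcM/B27 it was at 119, 117, 110.3 and 93.7 TPM and in HPLM/B27 at 90.9, 106, 109 and 98.7 TPM. All 12 Day 30 libraries lay below all Day 16 libraries on both scales. The low values of RPMI/B27 replicates 3 and 4, the RNR1-rich libraries, came to 88.3 and 94.2 rescaled TPM, close to the 95.5 and 97.9 of replicates 1 and 2. Against Day 16, PDK1 fell by 0.94 on the log2 scale in RPMI/B27 (SE 0.16, adjusted p = 0.00123), by 0.62 in RPMI_glcM/B27 (adjusted p = 0.0128) and by 0.74 in HPLM/B27 (adjusted p = 0.0042). After rescaling the falls were smaller, at -0.61 (adjusted p = 3.18e-06), -0.36 (adjusted p = 0.0002) and -0.40 (adjusted p = 7.92e-05). On TPM each of the 3 calls was kept whichever library was left out, with limma adjusted p up to 0.0482 in RPMI_glcM/B27. The rescaled fits were not repeated in that way. Between media at Day 30 no PDK1 difference passed on TPM, at 0.20 (SE 0.16) for HPLM/B27 and 0.32 (SE 0.16) for RPMI_glcM/B27 against RPMI/B27. With rescaling, the SE shrank to 0.05 and PDK1 was higher than in RPMI/B27 by 0.21 in HPLM/B27 (adjusted p = 0.0231) and by 0.25 in RPMI_glcM/B27 (adjusted p = 0.00974). PDK1 shares 445 exonic bases with the antisense gene PDK1-AS1, which was not analysed here.

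PDK2, the broadly expressed isoform, was the steadiest gene of the set on TPM, between 15.4 and 26.4 TPM over all libraries. Its means were 22.5 ± 0.950 at Day 16, 20.0 ± 3.44 in RPMI/B27, 22.1 ± 2.35 in RPMI_glcM/B27 and 23.3 ± 2.39 TPM in HPLM/B27 (SD, n = 4), and it passed no comparison on TPM. After rescaling it was higher in HPLM/B27 than at Day 16 by 0.36 (adjusted p = 0.02), where TPM gave 0.04 (adjusted p = 0.839). In RPMI/B27 against Day 16 its sign turned with the scale, from -0.18 to 0.15. PDK2 shares 2113 exonic bases with SAMD14 on the opposite strand, which stood between 0.556 and 1.57 TPM.

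PDK3, the isoform with the highest kinase activity, fell with time in RPMI/B27 and was highest at Day 30 in HPLM/B27. Its libraries were at 25.2, 30.4, 26.4 and 21.4 TPM at Day 16 and at 21.1, 20.2, 13.7 and 12.1 TPM in RPMI/B27. They were at 20.5, 21.6, 18.3 and 16.2 TPM in RPMI_glcM/B27 and at 21.0, 21.7, 24.6 and 22.7 TPM in HPLM/B27. In TPM the 3 Day 30 groups overlapped. In rescaled TPM they did not, with 16.9 to 18.4 in RPMI/B27, 18.5 to 21.0 in RPMI_glcM/B27 and 21.6 to 26.1 in HPLM/B27. In RPMI/B27 PDK3 fell from Day 16 by 0.62 (SE 0.16, adjusted p = 0.0163), or by 0.30 after rescaling (adjusted p = 0.0054). Without the 2 RNR1-rich libraries the TPM change was -0.30 and did not pass (adjusted p = 0.195). It also missed the threshold without Day 16 replicate 2 (-0.54, adjusted p = 0.0521), RPMI/B27 replicate 3 (-0.54, adjusted p = 0.0512) or RPMI/B27 replicate 4 (-0.49, adjusted p = 0.0531). The excess in HPLM/B27 over RPMI_glcM/B27 was 0.23 (SE 0.16, adjusted p = 0.9) on TPM and 0.30 (SE 0.07, adjusted p = 0.0353) after rescaling. Over RPMI/B27 it was 0.44 on both scales, with adjusted p = 0.203 on TPM and 0.000627 after rescaling.

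PDK4, the fasting-induced kinase, was scarce in these cells, with 5 to 37 reads per library. It measured 0.738, 1.52, 1.07 and 0.881 TPM at Day 16, and 1.59, 1.08, 0.850 and 1.88 TPM in RPMI/B27 at Day 30. In RPMI_glcM/B27 it measured 0.418, 0.712, 0.437 and 0.683 TPM and in HPLM/B27 0.407, 0.799, 0.323 and 0.340 TPM. Every low-glucose library lay below every Day 30 RPMI/B27 library, on both scales, and the mean in HPLM/B27 was 0.346 times and in RPMI_glcM/B27 0.417 times that in RPMI/B27. With a mean under 1 TPM it was outside the main test. In the fit of all genes above 0 the differences did not pass, at -0.67 for HPLM/B27 (adjusted p = 0.0904) and -0.57 for RPMI_glcM/B27 (adjusted p = 0.166). In the count-based limma-voom fit they were -1.40 (adjusted p = 0.017) and -1.17 (adjusted p = 0.0537). The hepatic endoderm markers were lower in the same groups, and their part in the PDK4 level was not tested.

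Within the PDK family, PDK1 made up 77.4% ± 0.856 at Day 16, 69.9% ± 2.74 in RPMI/B27, 72.5% ± 0.957 in RPMI_glcM/B27 and 68.6% ± 2.14 for HPLM/B27 (SD, n = 4). PDK3 made up 15.3% ± 0.601 in HPLM/B27 against 11.8% ± 0.452, 13.0% ± 0.420 and 12.6% ± 0.434 in the other groups, and its lowest HPLM/B27 library (14.5%) was above the highest library elsewhere (13.5%). PDK2 made up 10.4% ± 0.990 at Day 16 and 14.6% to 16.0% on average at Day 30. PDK4 never passed 1.94%.

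PDP1, the calcium-stimulated phosphatase, was the more abundant PDP in every library and was higher in low glucose, though not by the main test. It stood at 7.88, 9.59, 9.68 and 6.44 TPM at Day 16 and at 8.14, 7.97, 5.35 and 5.16 TPM in RPMI/B27 at Day 30. In RPMI_glcM/B27 it was at 11.0, 11.4, 10.3 and 9.16 TPM, and in HPLM/B27 at 9.62, 10.1, 11.1 and 9.89 TPM. Every low-glucose library was above every Day 30 RPMI/B27 library on both scales. The differences on TPM, 0.57 (SE 0.16, adjusted p = 0.0706) for HPLM/B27 and 0.61 (SE 0.16, adjusted p = 0.0552) for RPMI_glcM/B27, did not pass with all libraries. With RNR1 as a covariate they passed, at 0.44 (adjusted p = 0.0332) and 0.49 (adjusted p = 0.0232). They also passed in both media without RPMI/B27 replicate 1 (adjusted p = 0.0414 and 0.0317) or replicate 2 (adjusted p = 0.0473 and 0.0368), and in RPMI_glcM/B27 without Day 16 replicate 4 (adjusted p = 0.0495). After rescaling, PDP1 was at 6.83 to 7.19 in RPMI/B27, 10.4 to 11.1 in RPMI_glcM/B27 and 10.1 to 11.8 in HPLM/B27. The differences were then 0.58 (SE 0.08, adjusted p = 0.000212) and 0.54 (SE 0.08, adjusted p = 0.000445). Over 12 settings of the processing, the main fit included, they passed in 6 for each medium. They ran from 0.30 to 0.66 for HPLM/B27 (limma, adjusted p up to 0.265) and from 0.34 to 0.67 for RPMI_glcM/B27 (up to 0.258). Rescaled PDP1 was also above Day 16 in RPMI_glcM/B27 (0.53, adjusted p = 0.000108) and HPLM/B27 (0.57, adjusted p = 6.18e-05), where TPM gave 0.30 (adjusted p = 0.193) and 0.27 (adjusted p = 0.22). PDP1 in HPLM/B27 differed from RPMI_glcM/B27 by -0.03 (SE 0.16) on TPM and 0.04 (SE 0.08) after rescaling.

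PDP2, the insulin-responsive phosphatase, did not pass in any comparison on either scale. Its difference from Day 16 to Day 30 in RPMI/B27 was -0.44 (adjusted p = 0.103) on TPM and -0.17 (adjusted p = 0.385) after rescaling, and without RPMI/B27 replicate 2 the TPM difference passed (-0.58, adjusted p = 0.0274). Its means were 4.89 ± 1.20 at Day 16, 3.38 ± 1.06 in RPMI/B27, 4.04 ± 0.433 in RPMI_glcM/B27 and 4.20 ± 0.744 TPM in HPLM/B27 (SD, n = 4), with libraries between 2.21 and 6.56 TPM. PDP1 was 1.74 ± 0.264 times PDP2 at Day 16, 2.03 ± 0.415 times in RPMI/B27, 2.59 ± 0.0461 times in RPMI_glcM/B27 and 2.47 ± 0.370 times in HPLM/B27.

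**Figure D3:**
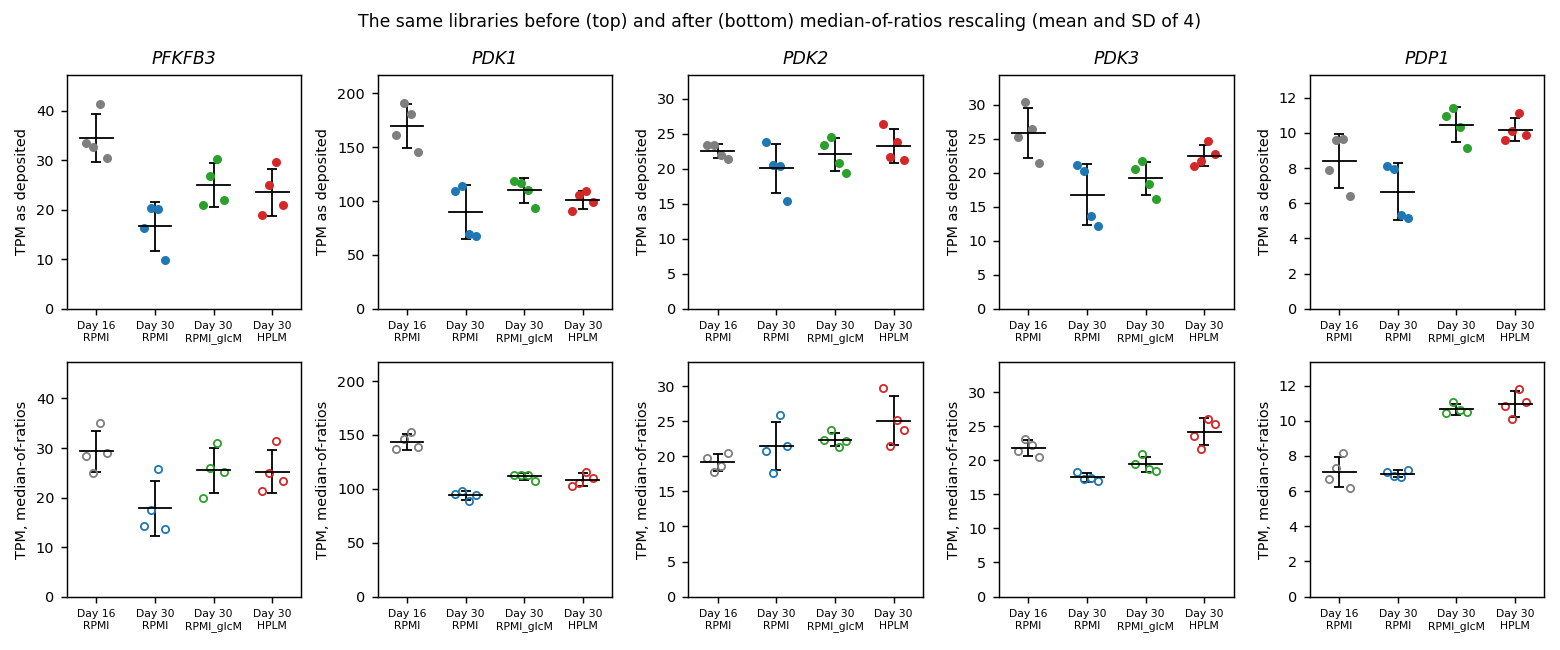
PFKFB3, PDK1, PDK2, PDK3 and PDP1 in each library as TPM (top) and as rescaled TPM (bottom, divided by the library's median-of-ratios factor), by group, with the mean and SD of 4. The Day 30 RPMI/B27 libraries draw together after rescaling for PDK1, from 67.6 to 114 TPM into 88.3 to 97.9, and for PDP1, from 5.16 to 8.14 TPM into 6.83 to 7.19.

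Ratios between genes of a library do not depend on its scaling, though their level depends on the gene lengths used for TPM. Summed PDK over summed PDP expression was 16.7 ± 1.44 at Day 16, 12.8 ± 0.959 in RPMI/B27, 10.4 ± 0.193 in RPMI_glcM/B27 and 10.3 ± 0.377 for HPLM/B27 (SD, n = 4). The Day 16 libraries, from 15.3 to 18.7, lay above all Day 30 libraries, and the RPMI/B27 libraries, from 11.7 to 13.8, lay above both low-glucose groups, where the highest was 10.7. The 2 low-glucose groups overlapped. PFKFB2 over PFKFB3 was 0.0785 ± 0.0303, 0.150 ± 0.0616, 0.307 ± 0.0555 and 0.528 ± 0.0761 in the same order of groups, without overlap between the 3 Day 30 media. PDK1 over PDK2 was 7.53 ± 0.790 at Day 16 and 4.48 ± 0.880, 4.99 ± 0.241 and 4.39 ± 0.648 in the Day 30 groups, which overlapped. These are ratios of transcripts, and enzyme amount and activity were not measured here.

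**Figure D4:**
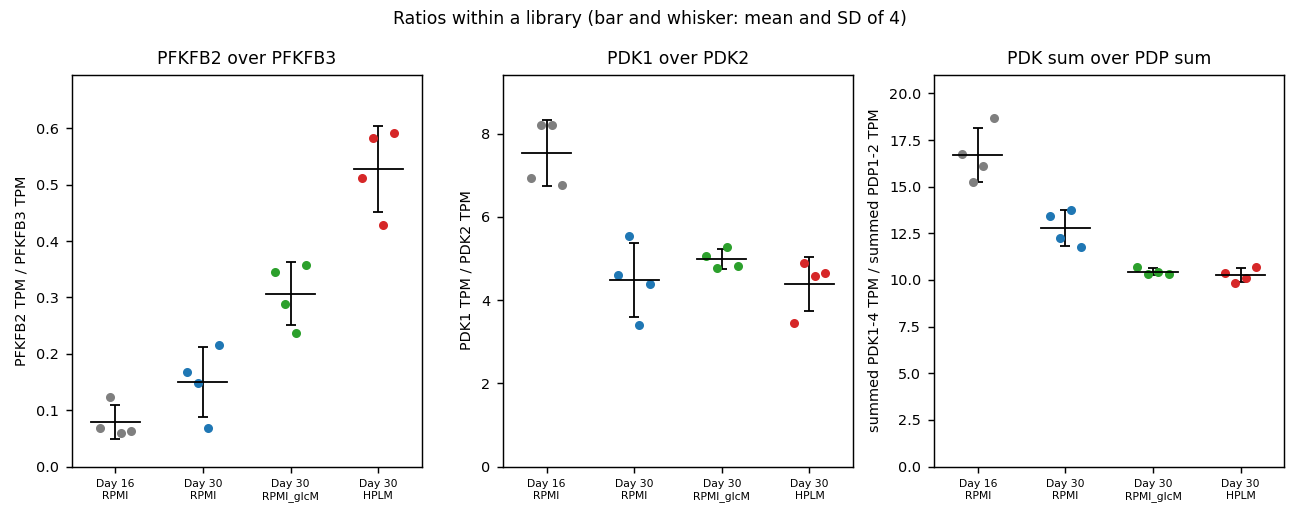
PFKFB2 over PFKFB3, PDK1 over PDK2 and summed PDK over summed PDP TPM (ratios, no unit) in each library, by group, with the mean and SD of 4 as bar and whisker. The PFKFB2 to PFKFB3 ratio averages 0.0785 at Day 16 and 0.528 in HPLM/B27, and the PDK to PDP ratio 16.7 and 10.3 in the same groups.

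By comparison, the 8 tested genes of the set were called as follows. Between HPLM/B27 and RPMI_glcM/B27, 0 of 8 passed in limma on TPM, with 1 (PFKFB2) at an unadjusted p under 0.05, 2 of 8 after rescaling and 2 of 9 in limma-voom. Over all genes tested 0.0682% were called on TPM and 1.63% after rescaling, and 268 of 15423 in limma-voom. Between HPLM/B27 and RPMI/B27, 2 of 8 were higher on TPM (PFKFB2, PFKFB4) and 5 after rescaling (PDK1, PDK3 and PDP1 added), against 2.41% and 12.9% of all genes. Between RPMI_glcM/B27 and RPMI/B27, 1 was higher on TPM (PFKFB2) and 4 after rescaling (PDK1, PFKFB4 and PDP1 added), against 2.2% and 12.1%. None of the 8 tested genes was called lower in low glucose on either scale.

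From Day 16 to Day 30 in RPMI/B27, 4 of 8 fell on either scale (PFKFB3, PFKFB4, PDK1, PDK3), against 19.9% of all genes called on TPM and 17.5% after rescaling. In RPMI_glcM/B27, 2 were called on TPM (PFKFB2 higher, PDK1 lower) and 3 after rescaling (PDP1 added, higher), against 21.1% and 27.5%. In HPLM/B27, 2 were called on TPM (PFKFB2 higher, PDK1 lower) and 4 after rescaling (PDP1 and PDK2 added, both higher), against 25.4% and 25.3%. On TPM the median log2 difference of all tested genes from Day 16 was -0.28 for RPMI/B27, -0.22 for RPMI_glcM/B27 and -0.29 for HPLM/B27. Of all called genes 10.5%, 15.8% and 11.8% were higher on TPM, and 49.2%, 48.6% and 50.8% after rescaling. Rescaling brings the median near 0 by construction, so a near-even split is built in, and it assumes that most genes did not change. Whether the fall on TPM was one of scale or of most genes was not tested. Relative to the TPM median, the RPMI/B27 changes on TPM were -0.77 for PFKFB3, -0.66 for PDK1, -0.63 for PFKFB4 and -0.35 for PDK3. PDP1, at -0.03, moved with that median. The 3 comparisons with Day 16 share those 4 libraries, as the 2 with RPMI/B27 share theirs.

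**Figure D5:**
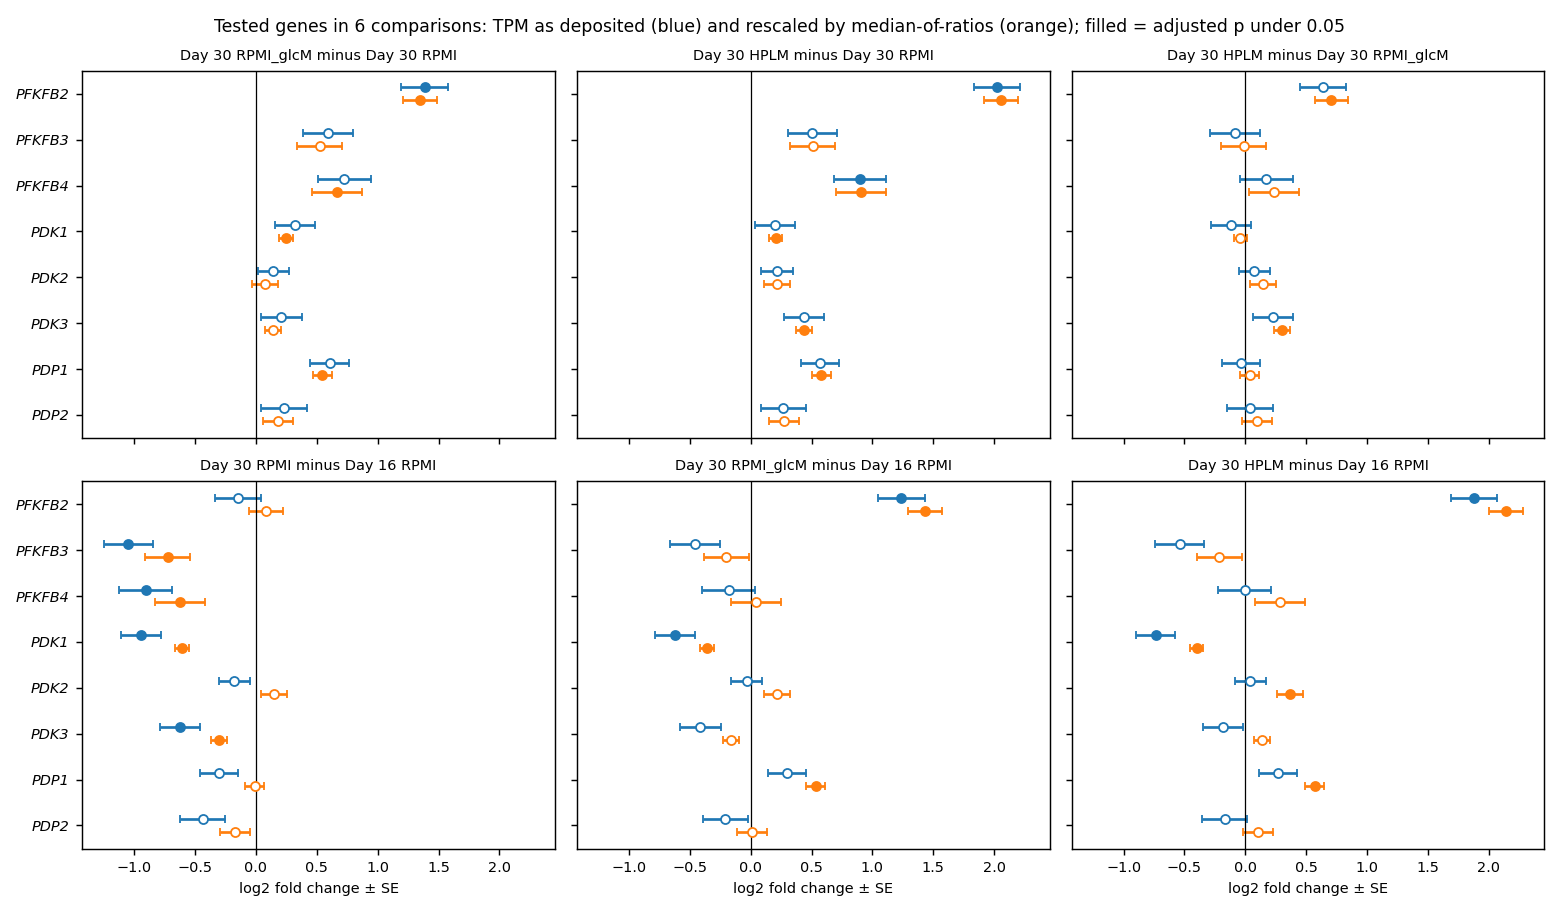
Log2 difference with its SE for the 8 tested genes in the 6 comparisons, on TPM and after rescaling, with filled points where the adjusted p passed 0.05. PFKFB2 lies furthest right in the comparisons of low-glucose media with RPMI/B27 (2.02 and 1.39 on TPM), and PDK1 lies left of 0 in all 3 comparisons with Day 16 (-0.94, -0.62 and -0.74 on TPM).

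The genes around the 2 switches were followed through 6 lists, given as counts on TPM beside the median of each list. Between HPLM/B27 and RPMI_glcM/B27 all lists had 0 genes called by limma on TPM, and after rescaling ENO3, the muscle enolase (0.64, adjusted p = 0.000749), and PPARGC1A, a coactivator of mitochondrial biogenesis (0.49, adjusted p = 0.0171), were higher in HPLM/B27. Of 11 genes of pyruvate entry (subunits of pyruvate dehydrogenase and of its phosphatase, mitochondrial pyruvate carriers, lactate dehydrogenases and pyruvate carboxylase), 3 were higher and 0 lower in HPLM/B27 than in RPMI/B27, with a median of 0.31. They were MPC1, a subunit of the mitochondrial pyruvate carrier (29.0 to 50.3 TPM, log2 difference 0.77, adjusted p = 0.00697), and the lactate dehydrogenase subunits LDHA (318 to 534 TPM, 0.76, adjusted p = 0.00374) and LDHB (447 to 639.8 TPM, 0.53, adjusted p = 0.012). MPC1 and LDHA were also higher in RPMI_glcM/B27. From Day 16 to Day 30 in RPMI/B27, 3 of the 11 fell on TPM (PDHB, PC and PDHA1), with a list median of -0.36 beside -0.28 for all tested genes. After rescaling 1 fell (PC) and 1 rose (MPC1), with a median of -0.03.

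Of 18 glycolysis genes tested, 3 were higher in HPLM/B27 and 6 in RPMI_glcM/B27 than in RPMI/B27 and 0 lower, with medians of 0.50 and 0.53, and 13 and 11 were higher after rescaling. HK2, the inducible hexokinase, showed the widest difference of the 3, with 23.3 TPM in RPMI/B27 and 56.5 TPM in HPLM/B27 (1.23, adjusted p = 0.000332), ahead of ENO3 (0.69, adjusted p = 0.0135), and TPI1, triose phosphate isomerase (0.53, adjusted p = 0.0447). From Day 16 to Day 30 in RPMI/B27, 7 of the 18 fell on TPM (median -0.30), against 5 with 1 higher after rescaling (median 0.04). Of 15 known targets of hypoxia-inducible factor, a set PDK1 is often placed in, 4 were higher in HPLM/B27 than in RPMI/B27 and 0 lower. The list median was 0.46. SLC2A1, the basal glucose transporter, went from 27.4 to 63.1 TPM (1.19, adjusted p = 0.002), with BNIP3, a mitophagy receptor (0.93, adjusted p = 0.00332), ERO1A, an oxidase of the endoplasmic reticulum (0.84, adjusted p = 0.042), and EGLN1, an oxygen-sensing hydroxylase (0.62, adjusted p = 0.0227). From Day 16 to Day 30 in RPMI/B27, 2 of the 15 rose and 4 fell on TPM (median -0.19), against 3 and 3 after rescaling (median 0.14). In RPMI_glcM/B27 6 rose and 1 fell on TPM (median 0.36), and 9 rose and 0 fell after rescaling (median 0.61). In HPLM/B27 6 rose and 1 fell on TPM (median 0.31), and 10 rose and 0 fell after rescaling (median 0.64).

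Among 15 transcriptional regulators tested, PPARGC1A and ESRRA, its estrogen-related receptor partner, were higher in both low-glucose media. Against RPMI/B27 on TPM, 0 regulators were lower, with list medians of 0.21 for HPLM/B27 and 0.17 for RPMI_glcM/B27. PPARGC1A stood at 30.4 TPM in RPMI/B27 and 78.0 TPM in HPLM/B27 (1.34, adjusted p = 0.000209) and ESRRA at 7.36 and 16.2 TPM (1.05, adjusted p = 0.000819). PDK4 belongs by its known control to the PPAR and FOXO targets, of which 13 were tested. Against RPMI/B27, 2 were higher in HPLM/B27 and 0 lower, with a median of 0.35. These were IRS2, an insulin receptor substrate (1.07, adjusted p = 0.00784), and FABP3, the heart fatty acid binding protein (0.80, adjusted p = 0.000219). The 2 glucose-sensing genes fell in HPLM/B27, TXNIP from 139 to 4.39 TPM (-4.58, adjusted p = 1.19e-05) and ARRDC4 from 22.2 to 2.69 TPM (-2.57, adjusted p = 7.32e-05), with like values in RPMI_glcM/B27 (-4.51 and -2.97). The median of all tested genes was -0.02 in the comparison of HPLM/B27 with RPMI/B27.

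PFKFB2, PFKFB3 and PDK1 had the widest range of group means on the log2(TPM + 1) scale, at 2.02, 1.05 and 0.94. For each, the 3 genes of at least 5 TPM with the most alike profile over the 16 libraries were found among 9753 genes by Pearson correlation, as a description, since all points share libraries and their scaling. PFKFB2 was most like ESRRA (r = 0.956), FNIP2, a folliculin-interacting protein (r = 0.949), and TSPAN32 (r = 0.945), and these values were 0.967, 0.972 and 0.952 on the rescaled scale. On TPM the lowest mean of ESRRA, like that of PFKFB2, was in RPMI/B27. ESRRA had group means of 8.74 ± 1.89 at Day 16, 7.36 ± 1.28 in RPMI/B27, 14.5 ± 1.33 in RPMI_glcM/B27 and 16.2 ± 0.387 TPM in HPLM/B27 (SD, n = 4). After rescaling both were slightly higher in RPMI/B27 than at Day 16, PFKFB2 with means of 2.42 and 2.23 and ESRRA by 0.09 on the log2 scale. PDK1 was most like CNOT1, a scaffold of the deadenylase complex (r = 0.983), the small GTPase gene NRAS (r = 0.980) and ZMYND8 (r = 0.971), with 0.953, 0.934 and 0.897 after rescaling. For PFKFB3, VTI1B led on TPM with r = 0.927 but fell to 0.458 after rescaling, while C8orf58 (0.922, then 0.841) and POM121C (0.919, then 0.856) moved less.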

How the data were processed

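Cardiomyocytes were sequenced by the authors from a stranded total RNA kit. Per the labels and methods, reads were aligned with STAR 2.5.3a to hg38 and counted with featureCounts 2.0.3, and R 4.1.3 was used. The gene lengths, the TPM step and the strand setting are not given in the sources used here. The deposited table holds TPM for 43388 genes. Whole reads were recovered from it for 31047 of 31047 genes above 0 (tolerance 0.002 reads, 100% of genes).

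The 16122 genes that averaged 1 TPM or more entered limma 3.58.1 (R 4.3.3), fitted to log2(TPM + 1) values (trended empirical Bayes, 4 groups in one fit, no covariates, Benjamini-Hochberg per comparison, two-sided, threshold 0.05). The study's count test could not be the main test on TPM. Alternatives are given at the end, limma-voom on recovered reads with a mean of at least 10 (15423 genes) among them. Python 3.11.15 computed shares, ratios and matches. The main limma fit and the recovery of reads were tested on simulated data, and the other steps were not. The simulation held mitochondrial and ribosomal RNA genes and RN7SK steady, so it did not cover the uneven RNR1. Named genes were the 10 genes and, per list, at most 4 past the threshold with the largest difference between HPLM/B27 and RPMI_glcM/B27, or else between HPLM/B27 and RPMI/B27. PDHB, PC and PDHA1 were named as a count of 3. The genes and lists were chosen with earlier results of these data known. Exonic overlaps are from GENCODE v44.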

Additional observations from a re-analysis of the deposited data

Results flagged for a closer look

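In 3 cases the change from Day 16 to Day 30 differed between media by a test of the difference itself, which is the same contrast as the direct comparison of the Day 30 media, since they share the Day 16 libraries. PFKFB2 changed by 2.02 more on the log2(TPM + 1) scale in HPLM/B27 than in RPMI/B27 (limma, adjusted p = 2.56e-05), and by 1.39 more in RPMI_glcM/B27 than in RPMI/B27 (adjusted p = 0.00121). PFKFB4 changed by 0.90 more in HPLM/B27 than in RPMI/B27 (adjusted p = 0.0384). In each case all 4 libraries of the low-glucose group lay above all 4 of the RPMI/B27 group. No library stood apart from the other 3 of its group by Dixon's test for any of the 10 genes, over 40 groups of 4.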

How the results depend on the processing

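The number of genes of the set called moved with the scaling of libraries in 5 of 6 comparisons (not from Day 16 in RPMI/B27), and with the groups or covariate in the fit in 5 of 6 (not between HPLM/B27 and RPMI_glcM/B27). Between HPLM/B27 and RPMI_glcM/B27 it was 0, and 2 with limma-voom on recovered reads or median-of-ratios scaling. Between HPLM/B27 and RPMI/B27 it was 2. It fell to 1 with only the 2 groups in the fit (81 of 16122 genes called) or with all genes above 0 (279 of 31047). With genes of at least 5 TPM it was also 1, with PFKFB4 below the filter and 354 of 9753 genes called. It rose to 3 with RNR1 as a covariate (1104 of 16122 genes called). With limma-voom it was 7 of 9, of which PDK4 was lower (2484 of 15423 genes called). With median-of-ratios scaling it was 5 (2083 of 16122), and 4 without mitochondrial and ribosomal RNA genes and RN7SK (1325 of 16091). Between RPMI_glcM/B27 and RPMI/B27 it was 1, and 2 with RNR1 as a covariate (727 of 16122 genes called). It was 4 with limma-voom (1993 of 15423) or median-of-ratios scaling (1945 of 16122), and 3 without mitochondrial and ribosomal RNA genes and RN7SK (1201 of 16091). From Day 16 in RPMI/B27 it was 4. It was 2 with 2 groups in the fit (998 of 16122 genes called) or with RNR1 as a covariate (1388). With median-of-ratios scaling (2826 of 16122) or limma-voom (3354 of 15423) it was 4. From Day 16 in RPMI_glcM/B27 it was 2, and 4 with 2 groups in the fit (4466 of 16122 genes called). It was 3 with RNR1 as a covariate (3237), median-of-ratios scaling (4438) or limma-voom (4569 of 15423). From Day 16 in HPLM/B27 it was 2. It was 3 with 2 groups in the fit (5834 of 16122 genes called) or with RNR1 as a covariate (3839). It was 4 with limma-voom (4552 of 15423), with median-of-ratios scaling (4086 of 16122) or without mitochondrial and ribosomal RNA genes and RN7SK (3629 of 16091). A pseudocount of 0.1 changed none of the 48 calls. Leaving out a library gave 0 to 0, 1 to 3, 1 to 2, 3 to 5, 2 to 4 and 2 to 3 in the same order of comparisons. No called difference changed sign. The cause of each change was not tested.

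An alternative chosen after seeing the data left out the 2 RNR1-rich RPMI/B27 libraries. It gave 2 in place of 4 from Day 16 in RPMI/B27 and 4 in place of 2 in RPMI_glcM/B27, with 1558 and 5498 of 16122 genes called. Together with median-of-ratios scaling it gave 2 between HPLM/B27 and RPMI_glcM/B27, 6 and 4 for HPLM/B27 and RPMI_glcM/B27 against RPMI/B27, and 4 from Day 16 in HPLM/B27. Of all 16122 genes, 422, 1991, 1474 and 4646 were called in these 4 comparisons.

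Replicate numbers were not taken to pair the libraries, since not every pair with the same number deviated together. The correlation of their deviations from the group means ran from -0.066 to 0.21 with a median of 0.023, over 0.1 in 6 of 24 pairs, against 2 of 72 pairs with different numbers. Between Day 16 and RPMI/B27 at Day 30 it was 0.024, 0.21, 0.14 and 0.13 for replicates 1 to 4. Over the groups, 7 of 16 libraries correlated best with a library of their own number. With a replicate block the counts were 0, 3, 4, 5, 4 and 3 in the order above. Of all 16122 genes, 48, 732, 721, 4734, 4487 and 5520 were then called. The 8 calls gained were PDP1 between HPLM/B27 and RPMI/B27, PFKFB3, PFKFB4 and PDP1 between RPMI_glcM/B27 and RPMI/B27, and from Day 16 PDP2 in RPMI/B27 (adjusted p = 0.0324), PFKFB3 and PDK3 in RPMI_glcM/B27 and PFKFB3 in HPLM/B27.

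Genes called over all genes tested, TPM against median-of-ratios scaling, were 11 and 262 between HPLM/B27 and RPMI_glcM/B27, 388 and 2083 between HPLM/B27 and RPMI/B27, and 354 and 1945 between RPMI_glcM/B27 and RPMI/B27. PFKFB1 had 3 to 14 and PDK4 5 to 37 reads per library, which limits the precision of their values.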
